A study of Mus musculus with 21 samples.

Results

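Icam1 and 7 other genes for cell adhesion receptors (Icam2, Vcam1, Selplg, Pecam1, F11r, Cd44 and Alcam) were followed in inflammatory monocytes (IMs) from mice with and without lung squamous cell carcinoma. The genes were chosen by symbol, and all 8 of the 8 were among the 23420 gene symbols counted in 21 RNA-seq libraries. Tumor-infiltrating IMs (TIMs) came from 3 sites with 5 libraries each. For the LN2E1 model (cell line KAL-LN2-E1), 500000 cells per mouse were injected orthotopically into the lung of FVB mice, and TIMs were taken from the primary lung tumors and from lymph node metastases. For the LN4K1 model, 300000 cells per mouse were given intravenously to DBA2 mice, and TIMs were taken from lungs with tumors. The baselines were bone marrow (BM) IMs of healthy, naive FVB mice and DBA2 mice, with 3 libraries each. No group carried a transgene or a gene deletion in the labels. Each tumor model was 1 cell line in 1 strain, so cell line, strain and route of injection cannot be told apart. IMs from the lung of healthy mice were not analysed here, so the tumor, the tissue and the handling of the tissue cannot be told apart in any comparison of TIMs with BM IMs. The study's methods call the libraries of a condition technical replicates, so p-values measure only the spread between these libraries, which may be technical.

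Circulating monocytes leave the blood in steps. They roll on selectins through PSGL-1, the product of Selplg, and arrest through integrins that bind ICAM and VCAM receptors of the immunoglobulin family. They then cross the vessel wall with the help of PECAM-1 and JAM-A, the product of F11r. ICAM-1 and VCAM-1 are best known on endothelium activated by inflammation, but leukocytes carry ICAM-1 too, where it binds the integrins LFA-1 and Mac-1 of neighbouring cells. CD44 binds hyaluronan in the matrix, and ALCAM binds CD6 on T cells.

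The promoters of Icam1, the gene the group is named for, and of F11r, the gene with the largest fold increase in each comparison of TIMs with BM IMs, are shown for context. RefSeq (GRCm38.p6) gave a promoter for 4 of the 8 genes (Icam1, F11r, Cd44 and Alcam). The 250 bases before the start of the RefSeq entry are printed on the strand of the gene, which is the plus strand for both. They came from chr9:21015690-21015939 for Icam1 and chr1:171437311-171437560 for F11r. The GENCODE gene starts used further on differ, at 21015985 for Icam1 and 171437535 for F11r. The end of the F11r window, with its last NF-kB match, thus lies inside the GENCODE gene. Distances before the start refer to the RefSeq entry. Capitals mark matches, on either strand, to 5 patterns.
Icam1: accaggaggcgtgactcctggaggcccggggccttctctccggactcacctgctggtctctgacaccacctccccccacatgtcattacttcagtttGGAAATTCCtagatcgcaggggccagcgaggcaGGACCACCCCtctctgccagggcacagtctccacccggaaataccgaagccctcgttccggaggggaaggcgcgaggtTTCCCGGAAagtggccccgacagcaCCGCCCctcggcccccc
F11r: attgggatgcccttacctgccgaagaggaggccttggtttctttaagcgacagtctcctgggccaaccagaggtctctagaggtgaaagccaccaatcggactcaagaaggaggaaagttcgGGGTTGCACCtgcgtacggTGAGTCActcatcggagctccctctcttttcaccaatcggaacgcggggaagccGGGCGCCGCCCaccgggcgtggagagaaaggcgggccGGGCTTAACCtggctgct
Of the 5 patterns, 4 were searched first. These were NF-kB (GGG and CC with any 5 bases between them), AP-1 (TGANTCA), GAS, the element bound by STAT factors (TTCNNNGAA), and the Sp1 box (GGGCGG). Of 32851 promoter windows of this length, 45.8% held the NF-kB pattern, 6.75% AP-1, 7.02% GAS and 32.7% the Sp1 box. The Icam1 window held 1 match to NF-kB, 1 to GAS and 1 to the Sp1 box. The GAS match, TTCCCGGAA, lay 42 to 34 bases before the start. The F11r window held 4 matches to NF-kB, of which 2 overlapped each other and the Sp1 box, and 1 match to AP-1, TGAGTCA, 109 to 103 bases before the start. The Cd44 window held 1 match to NF-kB, and the Alcam window 2 Sp1 boxes. The remaining pattern, a kB-like element (GGAANTTCC), was added after the Icam1 window had been read and was written to fit the letters seen there. It matched once in Icam1 (GGAAATTCC, 153 to 145 bases before the start) and in 0.813% of all windows, and because of how it was chosen this rarity supports nothing. A match is a description of the letters and not evidence of binding, and no factor's binding was measured.

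The libraries held 80772922 to 101043568 counts each. Library 1 of the lymph node TIMs and library 3 of the LN4K1 lung TIMs stood apart from their groups, with a mean correlation of log2 values with the other libraries of 0.889 and 0.907, against at least 0.945 for the rest. Library 3 of the LN4K1 lung TIMs also had the highest summed level of 8 monocyte markers (126500 CPM, counts scaled to library size) and of 6 dendritic cell markers (342.7 CPM) in its group. Most of each sum was 1 gene, Lyz2 at 115200 CPM and Cd209a at 306.4 CPM, so the sums do not show a rise of the lists as a whole. All 8 monocyte markers had at least 10 counts in every library. So did 7 macrophage markers, so this does not tell monocytes from macrophages. In primary tumors, lymph nodes and LN4K1 lungs, Ly6c2 fell against BM IMs of the same strain (log2 fold change -1.30, -1.17 and -0.88). Fcgr1 (4.48, 4.88 and 2.345) and Cd14 (3.03, 2.91 and 2.64) rose. At an adjusted p under 0.05 (edgeR), 6 of the 8 rose and 2 fell in primary tumors. The counts were 5 and 2 in lymph nodes and 5 and 1 in LN4K1 lungs. Markers of other cell types differed between groups. Summed levels of 6 fibroblast markers were 365.1 to 1112 CPM in TIMs of primary tumors, 0.836 to 87.1 CPM in those of lymph nodes, 1.31 to 43.1 CPM in LN4K1 lung TIMs, and at most 0.193 CPM in FVB and 0.359 CPM in DBA2 BM IMs. Summed levels of 10 endothelial markers were 13.4 to 27.7 CPM in TIMs of primary tumors, 16.9 to 32.5 CPM in lymph node TIMs, 9.25 to 12.8 CPM in LN4K1 lung TIMs, 7.39 to 13.3 CPM in FVB BM IMs and 9.31 to 10.9 CPM in DBA2 BM IMs. Summed levels of 6 neutrophil markers were 2001 to 2483 CPM in FVB and 1005 to 1320 CPM in DBA2 BM IMs. In TIMs they were 1100 to 2023 CPM in primary tumors, 649.7 to 1116 in lymph nodes and 1373 to 2073 in LN4K1 lungs. For 7 macrophage markers they were 551.2 to 732.7 and 552.8 to 578.3 CPM in these BM IMs. In these TIMs they were 832.3 to 1104, 906.9 to 1223 and 764.7 to 918 CPM. The part of these cells in other genes' levels was not tested. In these bulk libraries, fewer expressing cells and less RNA per cell cannot be told apart.

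Icam1 (ENSMUSG00000037405, chr9:21015985-21028817 in GRCm38, as for the genes that follow, plus strand) encodes ICAM-1, the ligand of the integrins LFA-1 and Mac-1. Its level was 48.8, 47.9 and 40.5 CPM in FVB BM IMs and 58.1, 57.0 and 53.2 CPM in DBA2 BM IMs. It was 450.4, 384.5, 330.1, 386.7 and 382.6 CPM in TIMs of primary tumors, 317.3, 347.9, 315.6, 420.0 and 422.6 CPM in lymph node TIMs, and 452.6, 410.0, 224.2, 419.1 and 328.4 CPM in LN4K1 lung TIMs. Every TIM library lay above every BM IM library, and the lowest TIM value was that of LN4K1 lung library 3. The group means were 386.9 ± 42.7 CPM in TIMs of primary tumors, 364.7 ± 53.3 CPM in lymph node TIMs and 366.9 ± 91.9 CPM in LN4K1 lung TIMs (SD, n = 5), and their ranges overlapped. With edgeR's quasi-likelihood test, the log2 fold change over BM IMs of the same strain was 3.06 (SE 0.122, adjusted p = 1.59e-07) in primary tumors, 3.00 (SE 0.158, adjusted p = 8.64e-07) in lymph nodes and 2.63 (SE 0.240, adjusted p = 5.23e-05) in LN4K1 lungs. The study had picked Icam1 among its genes of interest from these libraries, so the increase is not independent evidence. Of the exon bases of Icam1, 11.7% overlapped the antisense gene Gm47079, and the libraries were not stranded, so reads of the 2 genes cannot be told apart there.

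**Figure D1:**
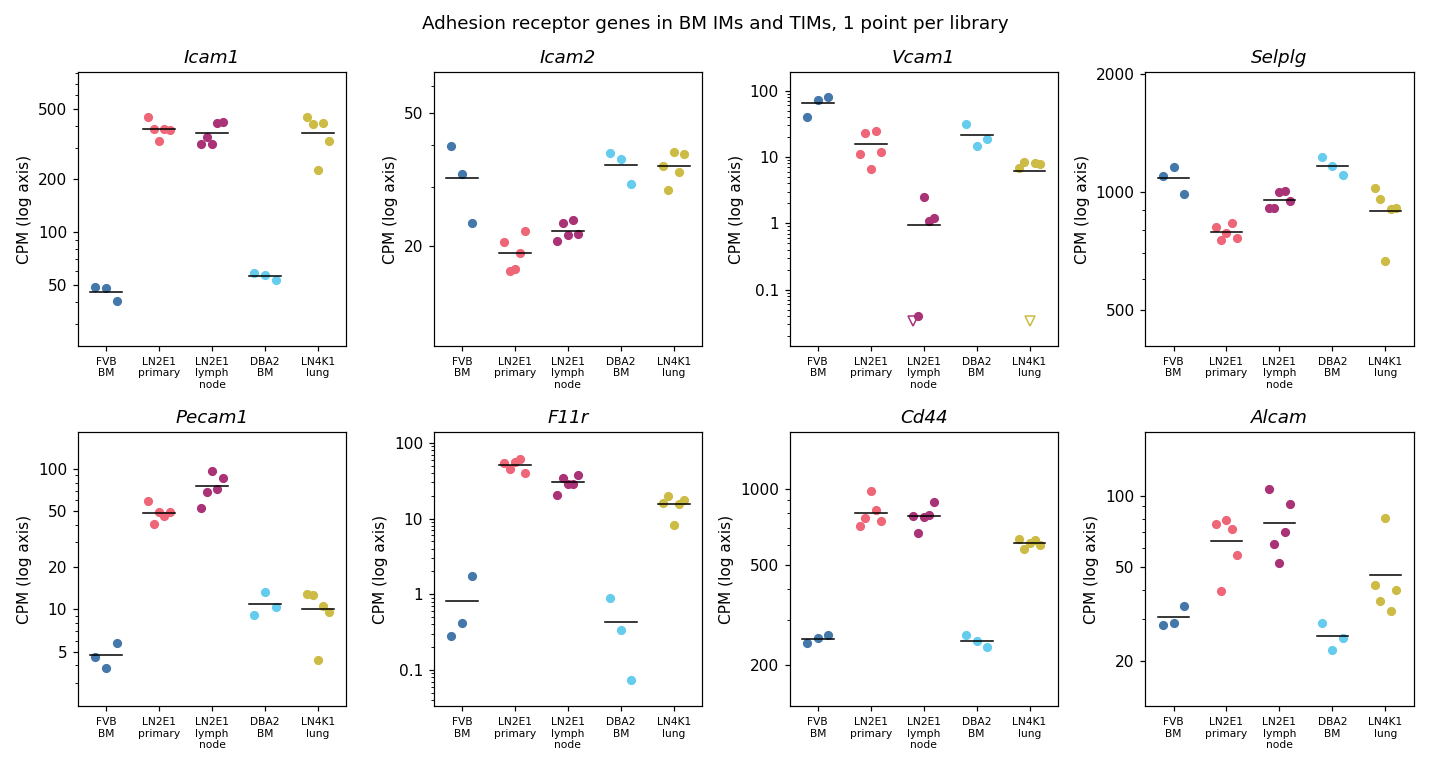
Level of each of the 8 genes in CPM (log axis) with 1 point per library and a line at the group mean. Open triangles mark libraries with a count of 0, drawn at the level of 3 counts. Icam1, F11r and Cd44 were higher in all 15 TIM libraries than in any of the 6 BM IM libraries, and the Pecam1 levels of LN4K1 lung TIMs overlapped those of both BM IM groups.

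The genes most like Icam1 across the 21 libraries were sought in the 8016 genes whose log2 CPM averaged over 3, by the root mean square difference of mean-centred log2 CPM. The 5 nearest were Il13ra1 (0.262), Abi3 (0.304), Ppp1r3d (0.317), Camk2d (0.331) and Hrh2 (0.366). Il13ra1, which encodes a receptor chain for IL-13, averaged 78.9 and 89.8 CPM in FVB and DBA2 BM IMs against 556.8, 660.8 and 535.9 CPM in primary tumor, lymph node and LN4K1 lung TIMs. This is a description over libraries that share their groups.

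Icam2 (ENSMUSG00000001029, chr11:106377656-106388075, minus strand) encodes ICAM-2, another LFA-1 ligand, found on resting endothelium and leukocytes. Its level was 39.7, 32.8 and 23.4 CPM in FVB BM IMs, 20.5, 16.8, 17.0, 19.0 and 22.2 CPM in TIMs of primary tumors and 20.8, 23.4, 21.5, 23.9 and 21.7 CPM in the lymph node group. It was 37.9, 36.4 and 30.6 CPM in DBA2 BM IMs and 34.8, 29.5, 38.3, 33.3 and 37.8 CPM in LN4K1 lung TIMs. Primary tumor TIMs lay below FVB BM IMs without overlap, whereas LN4K1 lung TIMs and DBA2 BM IMs overlapped. Icam2 fell in primary tumors by 0.76 on the log2 scale (SE 0.165, adjusted p = 0.00295 with edgeR). The log2 fold change was -0.52 in lymph nodes (SE 0.187, adjusted p = 0.0527) and -0.09 in LN4K1 lungs (95% interval -0.35 to 0.17, adjusted p = 0.681), and neither passed. The lymph node value passed with DESeq2 (adjusted p = 0.022), with all 5 groups in 1 edgeR fit (adjusted p = 0.00727), with at least 10 counts required in every library (adjusted p = 0.044) and without FVB BM IM library 3 (-0.70, adjusted p = 0.0153). Per kilobase of exon, Icam2 stood above Icam1 in both BM IM groups (16.8 against 10.5 CPM per kb in FVB, 18.4 against 12.9 in DBA2) and below it in the 3 TIM groups.

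Vcam1 (ENSMUSG00000027962, chr3:116109949-116129688, minus strand) encodes VCAM-1, the ligand of the integrin VLA-4. Its level was 40.4, 71.3 and 81.0 CPM in FVB BM IMs, 11.2, 23.2, 6.60, 25.0 and 11.98 CPM in TIMs of primary tumors, and 0, 0.0397, 2.46, 1.07 and 1.21 CPM in lymph node TIMs. It was 31.5, 14.7 and 18.7 CPM in DBA2 BM IMs and 6.76, 8.26, 0, 8.22 and 7.80 CPM in LN4K1 lung TIMs. All TIM libraries lay below the BM IMs of their strain, and primary tumor TIMs lay above every lymph node library. The count was 0 in lymph node library 1 and in LN4K1 lung library 3, against 567 to 2264 counts in primary tumor libraries, and a count of 0 allows up to 3 counts, as far as counting error goes. Vcam1 fell by 2.07 on the log2 scale in primary tumors (SE 0.415, adjusted p = 0.00214 with edgeR) and by 6.06 in lymph nodes (SE 1.13, adjusted p = 0.00225), where the fitted size rests on libraries at or near 0. With all 5 groups in 1 fit the primary tumor value did not pass (adjusted p = 0.0941). In LN4K1 lungs the log2 fold change was -1.88 (SE 0.972, adjusted p = 0.196), and without library 3 it was -1.55 (adjusted p = 0.000922). In the primary tumor libraries, in the order above, summed fibroblast markers were 530.8, 1041, 365.1, 1112 and 691.4 CPM. They were 0.836 to 87.1 CPM in lymph node TIMs and 1.31 to 43.1 CPM in LN4K1 lung TIMs. In BM IMs they were at most 0.359 CPM, and the part of fibroblasts in the Vcam1 levels was not tested. The summed level of 6 platelet markers was 73.4, 25.7 and 144.1 CPM in FVB BM IMs, in the order above, and 2.61 to 10.6 CPM in LN2E1 TIMs. It was 43.3, 3.03 and 0.655 CPM in DBA2 BM IMs, in the order above, and 3.48 to 16.9 CPM in LN4K1 lung TIMs. The part of platelets in the Vcam1 differences was not tested.

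Selplg (ENSMUSG00000048163, chr5:113818536-113832644, minus strand) encodes PSGL-1, the selectin ligand on which leukocytes roll. It had the highest level per kilobase of the 8 genes in all 5 groups, from 185.7 ± 7.87 CPM per kb in primary tumor TIMs (SD, n = 5) to 273.5 ± 14.3 in DBA2 BM IMs (SD, n = 3). Its level was 1101, 1160 and 993 CPM in FVB BM IMs, 816.7, 757.9, 788.7, 837.6 and 766.2 CPM in TIMs of primary tumors and 914.3, 910.1, 999, 1006 and 948.7 CPM in the lymph node group. It was 1229, 1168 and 1107 CPM in DBA2 BM IMs and 1028, 963, 669.3, 904.3 and 913.7 CPM in LN4K1 lung TIMs. Primary tumor and LN4K1 lung TIMs lay below their BM IMs in every library, and lymph node TIMs overlapped theirs. Selplg fell by 0.47 on the log2 scale in primary tumors (SE 0.0777, adjusted p = 0.000585 with edgeR), and the lymph node value of -0.18 did not pass (95% interval -0.37 to 0.01, adjusted p = 0.176). The fall of 0.46 in LN4K1 lungs (SE 0.144, adjusted p = 0.0442) was no longer past the threshold when 1 library was left out, be it DBA2 BM IM library 1, 2 or 3 or LN4K1 lung library 2, 4 or 5 (adjusted p of 0.0633 to 0.142).

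Pecam1 (ENSMUSG00000020717, chr11:106654217-106750628, minus strand) encodes PECAM-1, which binds itself on adjoining cells and takes part in passage through endothelium. It lies 266.1 kb from Icam2. Its level was 4.61, 3.84 and 5.81 CPM in FVB BM IMs, 59.2, 40.4, 49.5, 46.7 and 49.3 CPM in TIMs of primary tumors and 52.7, 68.4, 97.4, 71.9 and 86.5 CPM in the lymph node group. It was 9.09, 13.3 and 10.5 CPM in DBA2 BM IMs and 12.9, 12.7, 4.34, 10.6 and 9.66 CPM in LN4K1 lung TIMs. All LN2E1 libraries lay above all others, while LN4K1 lung TIMs overlapped DBA2 BM IMs. Pecam1 rose in primary tumors (log2 fold change 3.34, SE 0.192, adjusted p = 8.72e-07 with edgeR) and in lymph nodes (3.98, SE 0.269, adjusted p = 3.49e-06). In LN4K1 lungs the log2 fold change was -0.20 (95% interval -0.85 to 0.45, adjusted p = 0.711). Endothelium also expresses Pecam1, and the summed endothelial markers were higher in every LN2E1 library than in FVB BM IMs. The gap was narrow, from 13.3 CPM in the highest FVB BM IM library to 13.4 CPM in the lowest primary tumor library. In lymph node TIMs the endothelial markers Tek and Emcn were at 0 in every library, while Cdh5 (log2 fold change 5.56, adjusted p = 0.0107 with edgeR) and Vwf (2.35, adjusted p = 0.00382) rose, as they did in primary tumors (4.20 and 1.40) together with Kdr (5.04). The markers that passed were 3 higher and 2 lower of 9 tested in primary tumors and 2 higher of 6 in lymph nodes. The 2 lower were Tie1 (-0.93) and Sele (-1.505). Of all genes tested, 33.3% were higher and 28.6% lower in primary tumors, and 20.2% and 17.2% in lymph nodes. The primary tumor counts were near those shares and are no result about endothelial markers. The part of endothelium in the Pecam1 difference was not tested.

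F11r (ENSMUSG00000038235, chr1:171437535-171464603, plus strand) encodes JAM-A, a junction protein of endothelium, epithelium and leukocytes. Its level was 0.284, 0.418 and 1.75 CPM in FVB BM IMs and 0.883, 0.339 and 0.0739 CPM in DBA2 BM IMs. It was 53.8, 45.7, 55.5, 61.9 and 39.4 CPM in TIMs of primary tumors, 20.6, 34.7, 28.3, 28.9 and 37.7 CPM in lymph node TIMs, and 16.3, 19.98, 8.29, 15.8 and 17.6 CPM in LN4K1 lung TIMs. The 3 TIM groups did not overlap each other or the BM IMs, where F11r had 7 to 196 counts per library. F11r rose by a log2 fold change of 5.91 in primary tumors (SE 0.618, adjusted p = 4.37e-05 with edgeR), 5.18 in lymph nodes (SE 0.655, adjusted p = 0.000203) and 5.09 in LN4K1 lungs (SE 0.712, adjusted p = 0.00075). The size moved most with 1 library of each baseline. Without FVB BM IM library 3 the F11r value was 7.17 in primary tumors and 6.42 in lymph nodes, and without DBA2 BM IM library 1 it was 6.15 in LN4K1 lungs. Epithelium also expresses F11r. The summed level of 6 squamous epithelial markers was 3.95 to 10.1 CPM in TIMs of primary tumors, 0.212 to 4.56 CPM in lymph node TIMs and 0.243 to 2.03 CPM in LN4K1 lung TIMs, against at most 0.0796 CPM in FVB BM IMs and 0.247 CPM in DBA2 BM IMs. Of these markers, Epcam rose in primary tumors (log2 fold change 10.09, adjusted p = 2.54e-06 with edgeR) and in lymph nodes (8.78, adjusted p = 0.00242), and its value of 3.52 in LN4K1 lungs did not pass (adjusted p = 0.172). Krt6a and Trp63 were at 0 in lymph node TIMs and Krt5 and Krt6a in LN4K1 lung TIMs, and the part of epithelium in the F11r difference was not tested.

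Cd44 (ENSMUSG00000005087, chr2:102811141-102901665, minus strand) encodes the hyaluronan receptor CD44. Its level was 243.2, 256.6 and 261.6 CPM in FVB BM IMs and 263.4, 248.2 and 235 CPM in DBA2 BM IMs. It was 713.6, 767.2, 979, 825.6 and 742.8 CPM in TIMs of primary tumors, 779.8, 668.9, 773.7, 787.5 and 885 CPM in lymph node TIMs, and 629.9, 579.4, 612.2, 627.9 and 598.1 CPM in LN4K1 lung TIMs. All TIM libraries lay above all BM IM libraries, and the LN4K1 lung libraries lay below every LN2E1 library. Cd44 rose by a log2 fold change of 1.65 in primary tumors (SE 0.123, adjusted p = 4e-06 with edgeR), 1.62 in lymph nodes (SE 0.118, adjusted p = 5.76e-06) and 1.22 in LN4K1 lungs (SE 0.100, adjusted p = 2.62e-05). Fibroblasts also express Cd44. Their summed markers, 365.1 to 1112 CPM in TIMs of primary tumors, were 0.836 to 87.1 CPM in those of lymph nodes and 1.31 to 43.1 CPM in LN4K1 lung TIMs, and the part of fibroblasts in the Cd44 difference was not tested.

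Alcam (ENSMUSG00000022636, chr16:52248996-52454074, minus strand) encodes ALCAM, the ligand of CD6. Its level was 28.5, 29.1 and 34.2 CPM in FVB BM IMs, 76.2, 39.4, 79.0, 72.2 and 55.99 CPM in TIMs of primary tumors and 107.1, 62.6, 51.7, 70.1 and 92.1 CPM in the lymph node group. It was 29.1, 22.3 and 25.1 CPM in DBA2 BM IMs and 41.9, 35.9, 80.4, 32.4 and 40.0 CPM in LN4K1 lung TIMs. TIMs lay above BM IMs of their strain in every library, and LN4K1 lung library 3 was far above the other 4 of its group. Alcam rose in primary tumors (log2 fold change 1.06, SE 0.222, adjusted p = 0.00251 with edgeR) and in lymph nodes (1.33, SE 0.244, adjusted p = 0.0021). In LN4K1 lungs the value of 0.78 did not pass (SE 0.293, adjusted p = 0.0835), and without library 3 it was 0.48 and passed (adjusted p = 0.0189). It also passed with DESeq2 (adjusted p = 0.0321) and with all 5 groups in 1 edgeR fit (adjusted p = 0.0374).

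**Figure D2:**
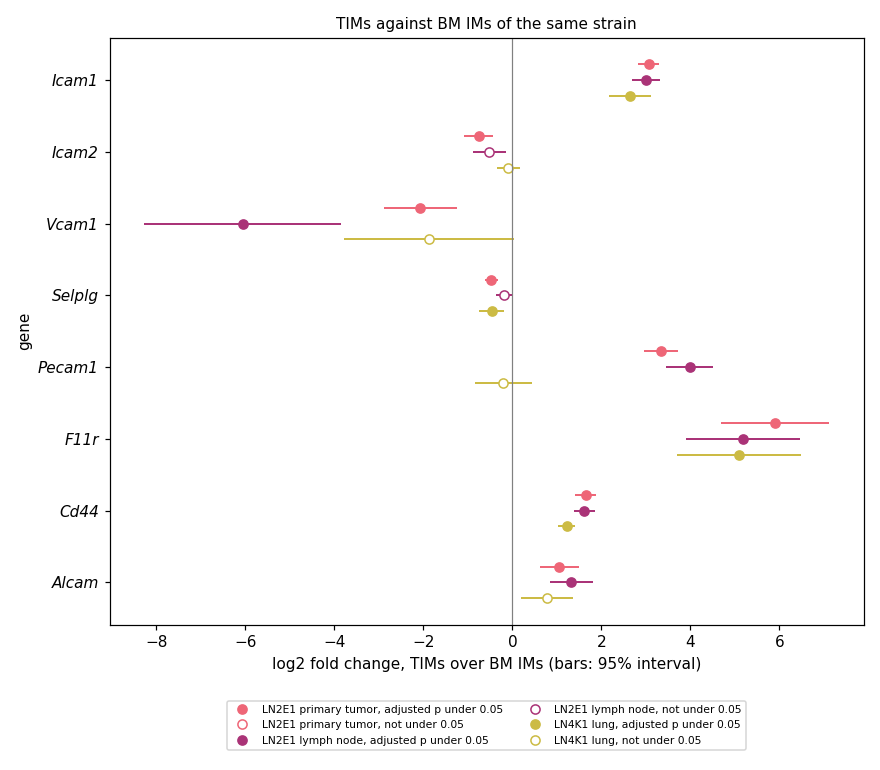
Log2 fold change of each gene in TIMs over BM IMs of the same strain, with bars for the 95% interval. Filled points had an adjusted p under 0.05. Icam1, F11r and Cd44 lie to the right of 0 at all 3 sites, and Pecam1 lies at 3.34 and 3.98 in the LN2E1 groups but at -0.20 in LN4K1 lungs.

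Counted over the 8 genes, primary tumor TIMs against FVB BM IMs had 5 genes higher and 3 lower at an adjusted p under 0.05, where 61.9% of the 14569 genes tested passed, 33.3% as higher and 28.6% as lower. The median log2 fold change of the 8 was 1.35, beside 0.08 for all genes. In lymph node TIMs against the same BM IMs, 5 were higher and 1 lower, where 37.4% of 13273 genes passed (20.2% higher and 17.2% lower), and the medians were 1.47 and -0.04. In LN4K1 lung TIMs against DBA2 BM IMs, 3 were higher and 1 lower, where 24.9% of 13624 genes passed (1892 higher and 1497 lower), and the medians were 0.34 and 0.03. The study's stricter definition of a differentially expressed gene (DEG), an adjusted p under 0.0001 with an absolute log2 fold change above 1, was met by 4 of the 8 genes in primary tumors, 3 in lymph nodes and 2 in LN4K1 lungs, where 12.9%, 5.71% and 2.97% of all genes met it. These counts apply the study's cut-offs to edgeR's p-values and unshrunken fold changes, whereas the study applied them to DESeq2's with shrunken fold changes, and DESeq2 with shrunken values gave 6, 5 and 3 of the 8 genes. In LN4K1 lungs this DEG count was 0 when any 1 of the 8 libraries other than lung library 3 was left out. The levels of TIMs and BM IMs did not overlap for 8 of the 8 genes in primary tumors, 6 in lymph nodes and 6 in LN4K1 lungs, where 58.1%, 42.9% and 34.8% of all genes did not overlap. The 2 LN2E1 comparisons share the FVB BM IM libraries.

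Differences between the lymph node and primary tumor TIMs of the LN2E1 model asked whether the receptors differ by tumor site. Pecam1 was higher in lymph nodes (log2 difference 0.63, SE 0.162, adjusted p = 0.0276 with edgeR) and so was Selplg (0.28, SE 0.0671, adjusted p = 0.0209). F11r was lower (-0.76, SE 0.174, adjusted p = 0.0169) and so was Vcam1 (-4.02, SE 1.08, adjusted p = 0.0338). Summed fibroblast markers also differed between these groups, at 365.1 to 1112 CPM in primary tumor TIMs and 0.836 to 87.1 CPM in lymph node TIMs. The part of fibroblasts in the Vcam1 difference was not tested. The difference in Icam1 was -0.07 (95% interval -0.30 to 0.15) and that in Cd44 -0.04 (95% interval -0.24 to 0.17), and neither these nor Icam2 and Alcam passed. Thus 4 of the 8 passed, where 11.7% of 13488 genes did (6.15% higher and 5.55% lower), and 0 of the 8 were DEGs by edgeR or DESeq2, where 0.0297% of all genes were by edgeR. The call for Vcam1 was lost without any 1 of 6 of the 10 libraries (lymph node 4 or 5, primary tumor 1, 2, 4 or 5), that for Pecam1 without any 1 of 5 (lymph node 5, primary tumor 2, 3, 4 or 5) and that for Selplg without primary tumor library 2 or 5. With all 5 groups in 1 fit, F11r had an adjusted p of 0.234.

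The BM IMs of the strains were compared to see how far the baselines differ. DBA2 BM IMs had more Pecam1 (log2 difference 1.22, SE 0.245, adjusted p = 0.0117 with edgeR) and less Vcam1 (-1.55, SE 0.336, adjusted p = 0.0159) than FVB BM IMs. The other 6 genes did not pass, with Icam1 at 0.32 (95% interval 0.10 to 0.54, adjusted p = 0.0758) and Cd44 at 0.00 (95% interval -0.18 to 0.17). These 2 of 8 stand beside 21.1% of 12905 genes (11.5% higher and 9.57% lower), and 0 of 8 were DEGs by edgeR, where 0.403% of all genes were, and 2 by DESeq2. The call for Vcam1 was lost without DBA2 library 2 or 3 or FVB library 2, and that for Pecam1 without FVB library 2 (adjusted p = 0.0504). An exact permutation test of 3 libraries against 3 cannot go below p = 0.1.

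The change from BM IMs in primary tumors was then set against that in LN4K1 lungs by an interaction term. Pecam1 differed by 3.56 on the log2 scale (SE 0.401, adjusted p = 6.69e-05 with edgeR), from 3.34 in primary tumors to -0.20 in LN4K1 lungs. Pecam1 had an adjusted p under 0.05 in all 22 alternatives that were run. Icam2 (-0.65, SE 0.214, adjusted p = 0.0351) and Cd44 (0.45, SE 0.145, adjusted p = 0.0323) passed as well. The difference in Icam1 was 0.44 (95% interval -0.05 to 0.94, adjusted p = 0.21) and that in F11r 0.85 (95% interval -0.74 to 2.43, adjusted p = 0.478). Without FVB BM IM library 3 the F11r difference was 2.11 and passed (adjusted p = 0.0451), and without DBA2 BM IM library 1 it was -0.21 (adjusted p = 0.923). These 3 of 8 stand beside 26.5% of 15182 genes (13.2% higher and 13.3% lower), and Pecam1 was the only DEG of the 8 by edgeR, where 0.369% of all genes were DEGs. That DEG call was lost when any 1 of the 16 libraries other than LN4K1 lung library 3 was left out. The call for Icam2 was lost without any 1 of 7 of the 16 libraries (adjusted p up to 0.105) and that for Cd44 without any 1 of 6 (adjusted p up to 0.127).

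**Figure D3:**
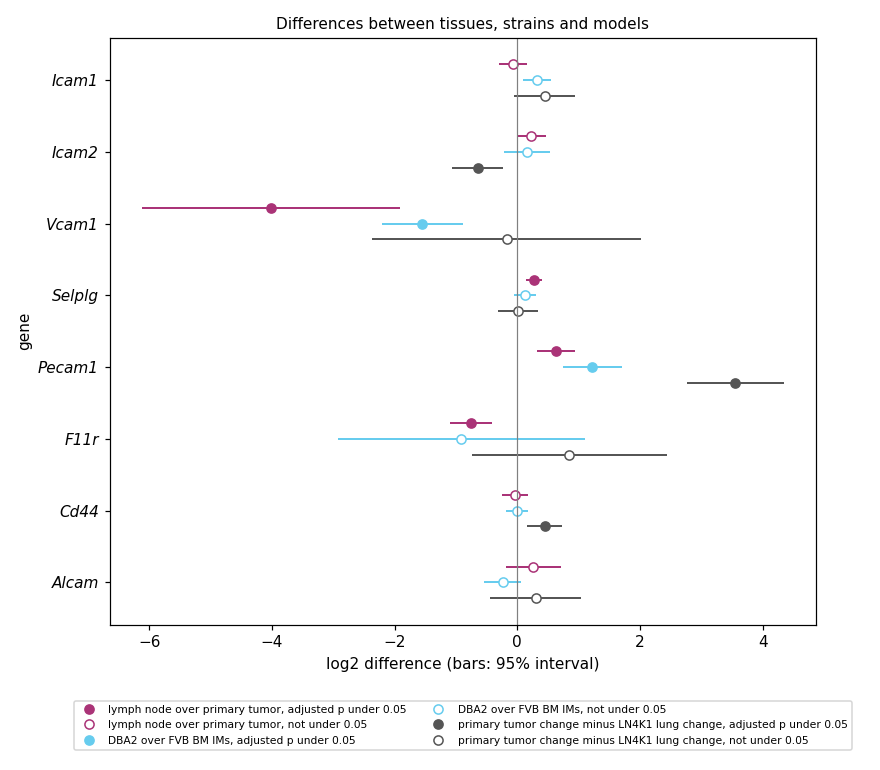
Log2 difference of each gene between lymph node and primary tumor TIMs, between DBA2 and FVB BM IMs, and between the change in primary tumors and that in LN4K1 lungs, with bars for the 95% interval. Filled points had an adjusted p under 0.05, and the largest positive value is that of Pecam1 between the models, at 3.56.

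Levels can be set side by side between genes only per length of exon. Selplg and Cd44 led in every group, and Icam1 came next in the 3 TIM groups, at 88.7 ± 9.79 CPM per kb in primary tumors, 83.6 ± 12.2 in lymph nodes and 84.1 ± 21.1 in LN4K1 lungs (SD, n = 5). Vcam1 was the lowest of the 8 in each TIM group, at 1.76, 0.108 and 0.700 CPM per kb in that order. In both BM IM groups F11r was the lowest, at 0.307 CPM per kb in FVB and 0.162 in DBA2. F11r was the fourth of the 8 in primary tumor TIMs, at 19.3 CPM per kb.

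**Figure D4:**
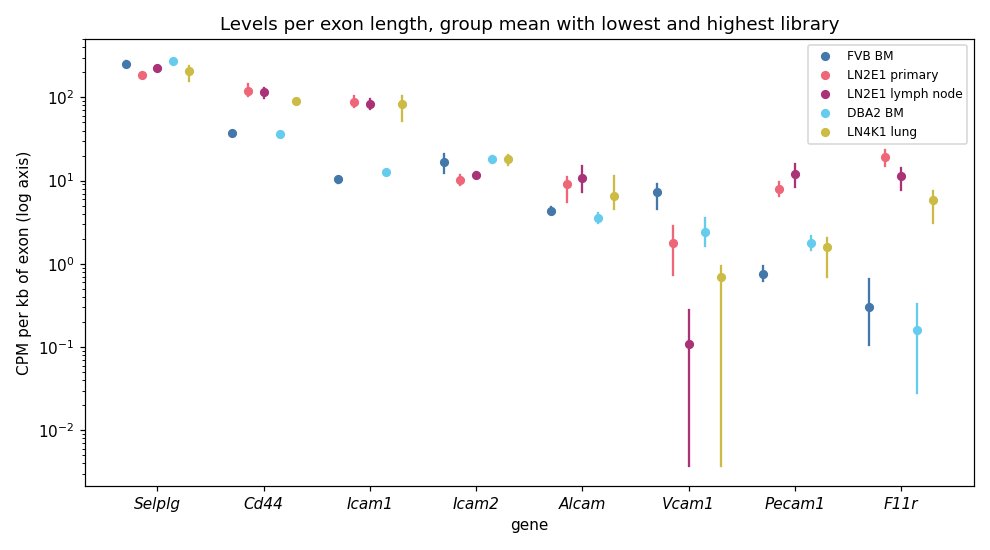
Group mean level per kilobase of exon (log axis) with a line from the lowest to the highest library of the group. Lines that reach a library with a count of 0 end at the level of 3 counts. Selplg lies highest in each group, and Vcam1 lies lowest in the 3 TIM groups.

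The binding partners of the 8 receptors formed a list of 23 genes. In primary tumor TIMs 15 of 23 were higher than in BM IMs and 5 lower, in lymph node TIMs 12 of 22 tested were higher and 4 lower, and in LN4K1 lung TIMs 10 of 23 were higher and 4 lower. Their median log2 fold changes were 1.32, 1.15 and 0.62, beside 0.08, -0.04 and 0.03 for all genes. Of all genes tested, 33.3% were higher and 28.6% lower in primary tumors, 20.2% and 17.2% in lymph nodes, and 1892 and 1497 of 13624 in LN4K1 lungs. Among the ICAM-1 partners, Itgal, the alpha chain of LFA-1, rose in all 3 comparisons (log2 fold change 2.37, 2.80 and 0.72). Itgax, the alpha chain of the integrin p150,95, rose by 6.13, 6.51 and 2.53. Itgam, the alpha chain of Mac-1, rose in primary tumors and lymph nodes (1.97 and 1.67), and its value of 0.53 in LN4K1 lungs did not pass (adjusted p = 0.271 with edgeR). Itgb2, the beta chain of these integrins, had values of 0.81, 1.09 and 0.34, of which the last did not pass.

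For the other receptors, Itga4 and Itgb1, the chains of VLA-4 that binds VCAM-1, rose at all 3 sites. Itga4 changed by 1.43, 2.03 and 0.95 and Itgb1 by 1.23, 1.64 and 0.44, whereas Vcam1 itself was lower or did not pass. Itgb7, the chain that pairs with the same alpha chain, fell (-0.79, -0.73 and -0.53). Selp, which encodes P-selectin, a ligand of PSGL-1, rose in primary tumors and lymph nodes (4.23 and 3.93). Cd38, a partner of PECAM-1, rose by 5.84, 6.04 and 4.58. Cd177, another partner of PECAM-1, fell in primary tumors and lymph nodes (-0.49 and -1.05), and its value of 0.21 in LN4K1 lungs did not pass. Of the integrin chains also listed, Itgav rose at all 3 sites (1.91, 2.14 and 1.05). Itgb3 fell in LN4K1 lungs (-3.09) and did not pass in primary tumors or lymph nodes. Among the CD44 partners, Cd74 rose by 4.21, 5.00 and 2.77, and Spp1, which encodes osteopontin, rose in primary tumors and LN4K1 lungs (1.74 and 2.74) and fell in lymph nodes (-0.74). Spp1 also differed between the BM IMs, at 212.5 CPM in FVB and 4.74 CPM in DBA2. Ezr and Msn, which link the receptors to actin, rose in primary tumors (1.16 and 1.32) and lymph nodes (1.20 and 1.64), and the related Rdx fell at all 3 sites (-0.69, -0.57 and -0.49).

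**Figure D5:**
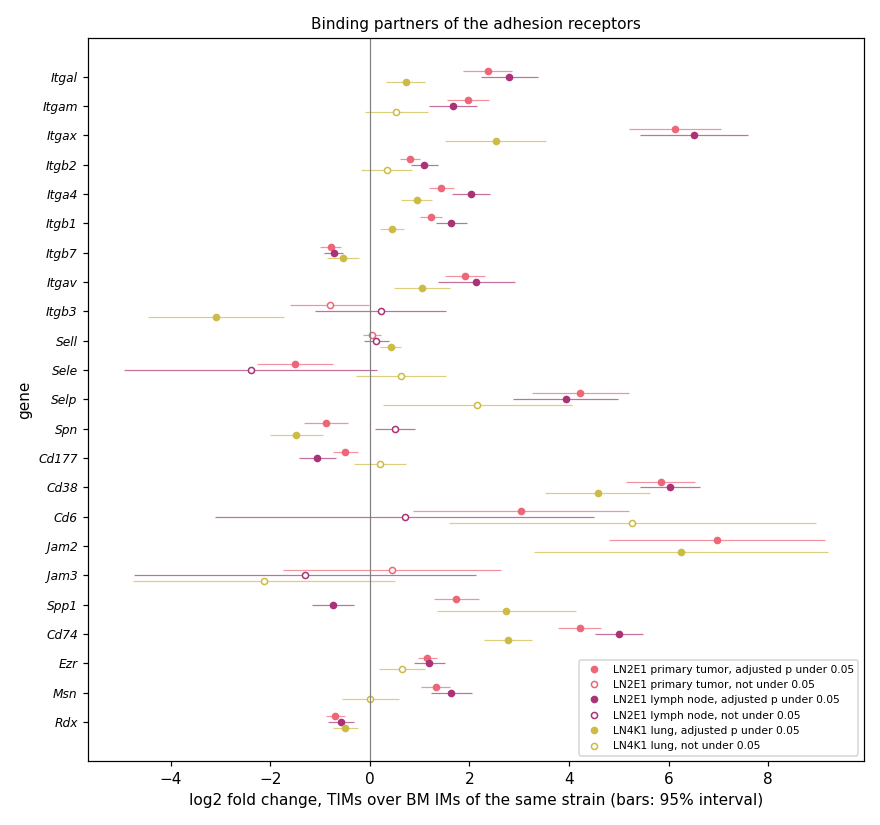
Log2 fold change of the binding partners in TIMs over BM IMs of the same strain, with bars for the 95% interval. Filled points had an adjusted p under 0.05. Cd38, Cd74, Itgax and Itgal are filled and to the right of 0 at all 3 sites.

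Other adhesion genes were read from 5 further lists, whose counts stand beside the same shares of all genes (33.3% higher in primary tumors, 20.2% in lymph nodes and 13.9% in LN4K1 lungs). Counts near those shares, such as that of the junction genes in primary tumors and that of the actin linkers in LN4K1 lungs, are no result about the list. Of 15 genes tested that build or modify selectin ligands, 7 were higher and 3 lower in primary tumor TIMs, 7 and 2 in lymph node TIMs, and 5 and 1 in LN4K1 lung TIMs. Fut7, the fucosyltransferase that completes selectin ligands on leukocytes, fell at all 3 sites (-2.23, -1.95 and -1.82), while St3gal6, a sialyltransferase, rose (3.11, 3.68 and 1.76). Of the junction and immunoglobulin-family genes, 9 of 21 tested were higher and 3 lower in primary tumors, 9 and 2 of 18 in lymph nodes, and 5 and 2 of 19 in LN4K1 lungs. Pvr, the receptor known as CD155, rose at all 3 (2.64, 2.91 and 2.23), as did Pvrl2, which encodes nectin-2 (2.95, 2.05 and 2.18).

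Of the hyaluronan genes, 6 of 12 tested were higher and 3 lower in primary tumors, 4 and 3 of 9 in lymph nodes, and 4 and 2 of 10 in LN4K1 lungs. Tnfaip6, whose product binds hyaluronan, rose at all 3 sites (4.50, 4.76 and 3.99), and so did Vcan, which encodes the proteoglycan versican (2.37, 2.48 and 3.20). The hyaluronan-binding mitotic gene Hmmr fell (-4.16, -12.83 and -5.21). In lymph node TIMs it was at most 0.0238 CPM, so the fitted size there rests on libraries at or near 0. Of 24 genes that link integrins and receptors to actin, 15 were higher and 2 lower in both LN2E1 groups, and 3 higher and 2 lower in LN4K1 lungs. Of the proteases and related genes that shed adhesion receptors, 8 of 14 tested were higher and 2 lower in primary tumors, 7 and 2 of 13 in lymph nodes, and 2 and 2 of 13 in LN4K1 lungs. Mmp14 rose (8.84, 7.80 and 6.52) and so did Adam8 (5.45, 4.93 and 2.46), while the neutrophil elastase gene Elane fell (-8.55, -9.00 and -4.67). The sizes for Mmp14 rest on low BM IM levels (means of 0.286 CPM in FVB and 0.243 CPM in DBA2). Elane was 0.0121 to 2.49 CPM in lymph node TIMs, so its size there rests in part on levels near 0.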

How the data were processed

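Sorted IMs (isolated with a monocyte kit and sorted with antibodies to CD45, CD11b, Ly6C and Ly6G) were profiled by non-stranded RNA-seq. The authors aligned reads to mm10 (GRCm38) and counted them on genes with featureCounts 1.5.2, and deposited raw read counts, which are the unit used here. Groups came from the labels, every library was used, and no library was a duplicate of another.

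Counts were fitted 1 comparison at a time in R 4.3.3 with edgeR 4.0.16 (TMM factors, a minimum count of 10, robust quasi-likelihood test, Benjamini-Hochberg adjustment over all genes tested). CPM used TMM factors over the 21 libraries, with a prior count of 2 for log2 values. DESeq2 1.42.0 was an alternative, and the edgeR fit of each comparison was tested on simulated counts. Single genes were also compared by exact permutation tests, which for 5 libraries against 3 cannot go below p = 0.0179. Locations came from GENCODE vM21.

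The 8 genes and all lists were chosen with earlier results of these data known. Named were the 8 genes, their binding partners, up to 3 genes per direction from each other list that passed with 1 sign in the 3 comparisons of TIMs with BM IMs, the 5 genes most like Icam1, and markers. Of the promoter patterns, 1 was added after the Icam1 sequence had been read.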

Additional observations from a re-analysis of the deposited data

Results flagged for a closer look

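In LN4K1 lung TIMs, library 3 stood apart from the other 4 for 2 of the 8 genes. Its Vcam1 level was 0.0 CPM, against 6.76 to 8.26 CPM in the others, and its Alcam level was 80.4 CPM, against 32.4 to 41.9 CPM. These came from 24 gene and group pairs tested by Dixon's criterion, which marks about 1 group in 20 by chance.

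The change from BM IMs differed between LN2E1 primary tumors and LN4K1 lungs for 3 genes by an interaction term in edgeR. The log2 difference was 3.56 for Pecam1 (adjusted p = 6.69e-05), -0.65 for Icam2 (adjusted p = 0.0351) and 0.45 for Cd44 (adjusted p = 0.0323). Strain, cell line, route and tissue cannot be told apart in these differences.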

How the results depend on the processing

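Icam1, F11r and Cd44 passed under every alternative run in the 3 comparisons of TIMs with BM IMs. DEG counts moved most. With DESeq2, shrunken or not, 5 genes were DEGs in lymph nodes against BM IMs and 2 between strains. With all 5 groups in 1 fit, 1 gene passed between lymph node and primary tumor TIMs and 1 between strains, and with at least 10 counts required in every library 2 passed between lymph node and primary tumor TIMs. With 1 library left out, DEGs numbered 0 to 2 in LN4K1 lungs and 0 to 1 for the interaction. Passing genes then numbered 1 to 4 between lymph node and primary tumor TIMs, 0 to 2 between strains and 1 to 4 for the interaction.

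Signs turned only for values that did not pass in the reported fit or with the turned sign. With 1 library left out, Cd44 ranged from -0.091 to 0.043 between lymph node and primary tumor TIMs. Between strains Icam2 ranged from -0.011 to 0.34, F11r from -1.98 to 0.34 and Cd44 from -0.052 to 0.035. For the interaction Vcam1 ranged from -0.56 to 0.045, Selplg from -0.086 to 0.066 and F11r from -0.21 to 2.11. Selplg in the interaction was also -0.057 with all 5 groups in 1 fit and -0.055 without a filter on low counts. The cause was not tested.

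The labels do not say whether replicate numbers pair the samples, and correlations over so few libraries cannot decide it. Deviations of same-numbered libraries correlated at over 0.1 for every number in none of the 5 comparisons. In lymph nodes against BM IMs the correlations were 0.28, 0.0807 and 0.297, and each library correlated best with its own number, a hint from the data and not from the design. With the replicate number as a block, 0 genes were DEGs in any of the 3 comparisons of TIMs with BM IMs or in the interaction, and 0 passed between lymph node and primary tumor TIMs, while 8, 6 and 3 passed in primary tumors, lymph nodes and LN4K1 lungs against BM IMs.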
